A study of Oryza sativa with 14 samples.

Results

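The auxin response gene families of rice were followed across whole seedlings of 4 modified lines and 3 unmodified cultivars. Members were all genes whose symbol or synonym names an Aux/IAA protein (IAA and a number), an auxin response factor (ARF and a number), a SAUR protein (SAUR and a number) or a GH3 enzyme (GH3 and a number). The reference gene table holds 61 such genes, and 53 of them had a probe set of their own among the 17905 genes measured. These were 26 of 28 Aux/IAA genes, 17 of 23 ARF genes, all 9 GH3 genes and the 1 SAUR gene, SAUR39. IAA11, IAA29, ARF5, ARF6, ARF8, ARF19, ARF21 and ARF25 had none. The rule chose genes by name, and where a gene had several probe sets the one with the highest mean over the 14 arrays stood for it. Some names are used for more than 1 gene in the reference, which also calls ARF18 ARF10, ARF4 ARF2, ARF23 ARF1 and IAA5 IAA8. These are separate genes, and results under ARF10, ARF2, ARF1 and IAA8 are not theirs. A symbol beginning with ARF can also stand for an ADP-ribosylation factor, and no protein sequence was at hand to check for that.

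Auxin acts in the nucleus through a short chain of proteins. Aux/IAA proteins repress transcription by binding to ARF transcription factors, and auxin brings the Aux/IAA proteins to the TIR1 and AFB receptors, after which they are degraded and the ARF proteins are free to act on auxin-responsive promoters. Many Aux/IAA, GH3 and SAUR genes are themselves induced by auxin within minutes to hours. GH3 enzymes join auxin, and in some members jasmonate, to amino acids, which for most auxin conjugates means storage or removal. In rice seedlings these genes are best known from root branching, crown root formation, coleoptile and stem elongation and plant height.

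The study set mutagenesis beside transgenesis, in lines that were either stable or newly made, and asked how much each alters the transcriptome. RNA came from 14 pools of 6 whole seedlings, 2 pools per group, hybridised to the Affymetrix GeneChip Rice Genome Array. Seedlings were sampled at 12 days, of which the first 2 were dark and the last 10 had a 12 h photoperiod, all at 28 °C, and all seeds had been treated with the fungicide Benlate and with hypochlorite. Every group is Oryza sativa ssp. japonica, and every modified group is a single line. The p-values rest on the spread between pools of the same group, estimated jointly over all 7 groups. They do not measure the spread between independent lines.

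The stable transgenic line (cv. Bengal) was in its T3 generation, expressed the single-chain antibody ScFvT84.66 against carcinoembryonic antigen, and was compared with unmodified Bengal. The stable mutant (cv. Estrela A) came from gamma-irradiated seed, had passed over 10 selfing generations, stood about 45 cm shorter at maturity than its parent, and was compared with unmodified Estrela A. The unstable transgenic line (cv. Nipponbare) was the T1 generation after Agrobacterium transformation and carried 1 copy of BCBF1 behind the Arabidopsis RD29A promoter, which is stress-inducible, and 1 copy of hpt II. The unstable mutant (cv. Nipponbare) was an M1 generation after 100 Gy of gamma rays, and was picked by the study because it looked most like the nonirradiated plants. Both unstable lines were compared with unmodified Nipponbare, from seed of the same panicle. Both transgenic lines were germinated on 30 mg/L hygromycin B and no other group was, so effects of the antibiotic and of the transgene cannot be told apart.

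The deposited values are log2 levels, and a difference of 1 on this scale is a 2-fold difference. A member was called when limma gave a Benjamini-Hochberg adjusted p under 0.05 over all 57194 probe sets tested. Replicate arrays correlated at 0.9929 to 0.9968 over all probe sets. The groups differed in the mean level of genes listed by name for root, shoot and grain remnant. Over 21 root genes the mean log2 level was 8.92 to 9.15 on the arrays of the Nipponbare control and the unstable transgenic line, but 7.51 to 8.11 in the unstable mutant. It was 7.42 to 8.03 in the Bengal groups and 7.41 to 7.47 in the Estrela A groups. Over 10 shoot genes it was 11.35 to 11.36 in the Nipponbare control, 11.12 to 11.26 in the unstable transgenic line and 11.61 to 11.64 in the unstable mutant. Over 14 genes of the grain remnant the same groups had 5.14 to 5.57, 5.56 to 5.64 and 5.69 to 6.07. The root genes did not all differ alike. NRT2.2 had a mean of 9.61 in the Nipponbare control and 4.87 in the Bengal control, but NAS3 had 10.005 and 11.20. In whole seedlings, fewer cells of a type, less RNA per cell and regulation of the listed genes cannot be told apart. In the mean over the root genes the unstable mutant thus stood nearer to the other cultivars than to its own control, and its calls are also given against those cultivars. Gene by gene, 9 of the 21 were called lower than in Nipponbare and 12 were not called. The 2 mutant arrays lay far apart in NAS1 (6.65 and 11.76) and NAS2 (7.94 and 12.34). Whether its pools held seedlings of another cultivar or less root tissue was not tested, and this limits what every difference between the mutant and Nipponbare means. Of 169 probe sets with a Nipponbare mean over 3 above both other controls, a step chosen after seeing the data, the mutant lay nearer to Nipponbare in 115 and the unstable transgenic line in 165. Of 54 with a mean over 3 below, these numbers were 19 and 49. The shares changed with the step. For the mutant they were 60.8 percent above and 30.3 percent below at a step of 2, and 82.6 and 40 percent at 4. For the unstable transgenic line they were 96.7 and 88.3 percent at a step of 2, and 98.8 and 92 percent at 4.

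The members did not move as a block, and in both unstable lines Aux/IAA genes were called in each direction. The unstable mutant had the lowest group mean of all 7 groups for 15 of the 53 members. The unstable transgenic line had the highest mean for 17, and the Nipponbare control the lowest for 12. The matching shares over all genes were not computed, so these counts set nothing apart about the members. Pools of the same group usually lay close together. The median gap between the 2 arrays of a group was 0.08 to 0.18, with the widest gaps for IAA20 in the unstable mutant (1.17) and SAUR39 in the unstable transgenic line (1.09).

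**Figure D1:**
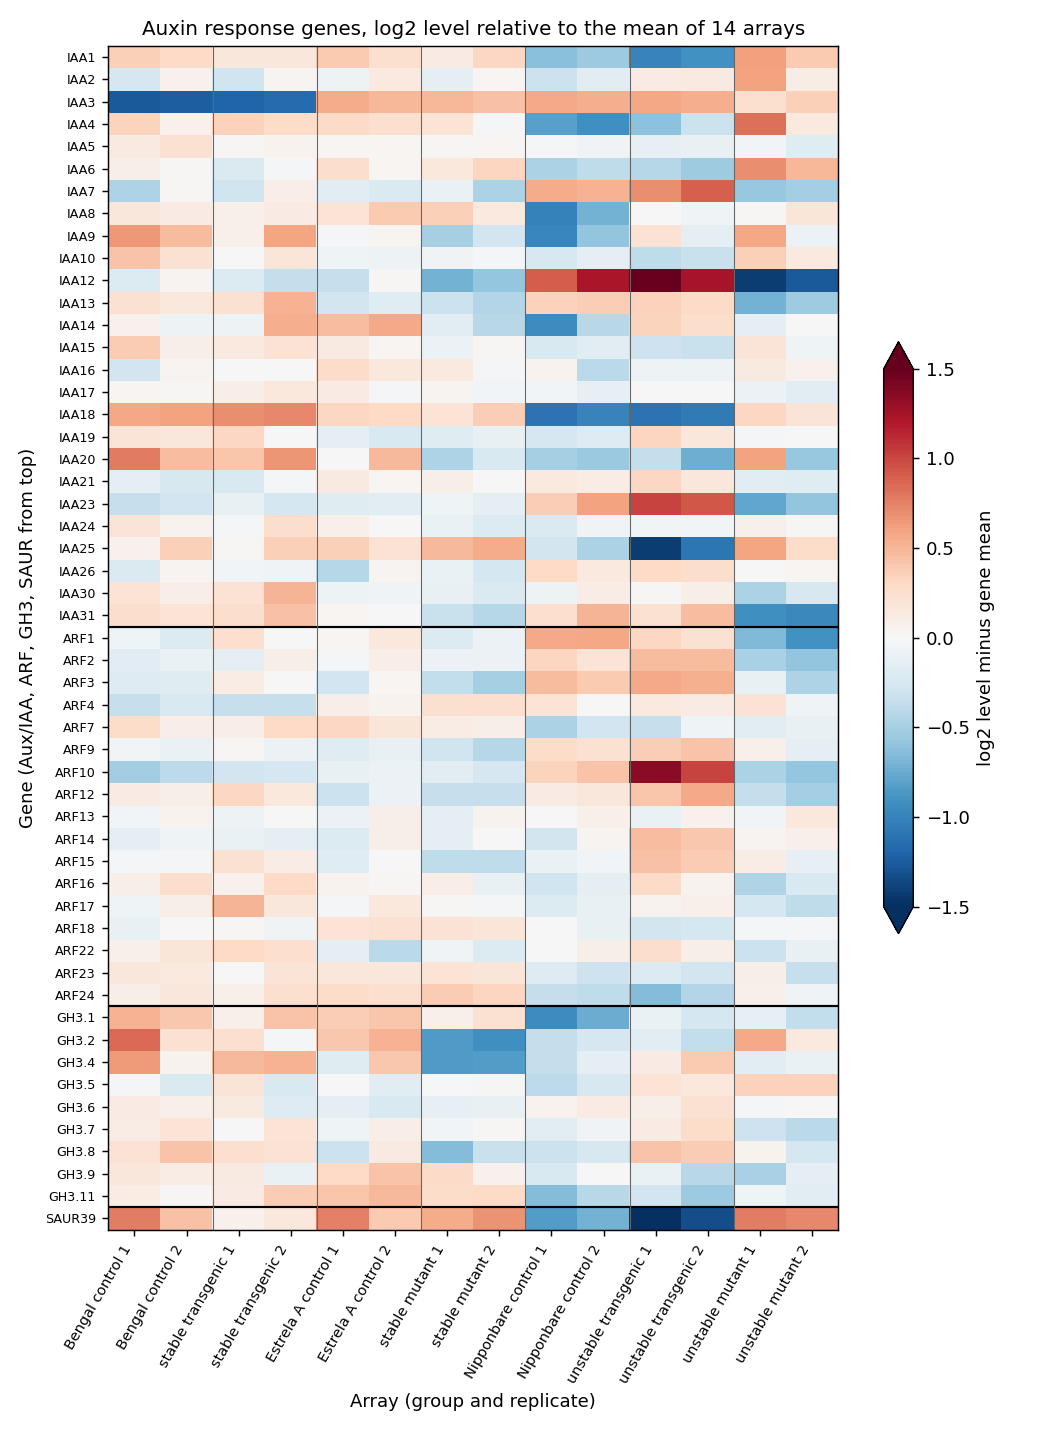
Log2 level of each of the 53 measured members on each of the 14 arrays, minus that member's mean over the arrays, from blue (lower) to red (higher), with the colour scale cut at 1.5 either way. Rows are genes by family from the top (Aux/IAA, ARF, GH3, SAUR) and columns are arrays by group and replicate. The Nipponbare control and unstable transgenic columns resemble each other. The unstable mutant columns have the opposite colour for members such as IAA1, IAA12, IAA18, IAA23 and SAUR39. For these members the means of the Bengal and Estrela A controls and of both stable lines also lie on the mutant's side of the Nipponbare control.

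Among the unmodified cultivars, Nipponbare stood apart from Bengal and Estrela A in all 4 families. The moderated F-test over the 3 controls called 33 of 53 members (17 Aux/IAA, 11 ARF, 4 GH3 and SAUR39), which is 62.3%, where it called 47.5 percent of all genes. Nipponbare differed from Bengal in 31 members (background 39.1 percent) and from Estrela A in 27 (background 37.2 percent). Estrela A and Bengal differed in only 3, which were IAA3, IAA10 and IAA13 (background 14.5 percent). With Nipponbare control replicate 1 left out, the F-test called fewer members. The share of all genes called in that fit is not given here. The root genes given above differed between the same cultivars, and their part in these differences was not tested.

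IAA3, an Aux/IAA repressor gene, had the lowest adjusted p of the members in the F-test (1.77e-08, limma). It read 11.58 and 11.60 on the Bengal control arrays, 13.40 and 13.34 on those of Estrela A and 13.41 and 13.38 on those of Nipponbare. Estrela A was thus 1.78 higher than Bengal (SE 0.09, limma adjusted p = 3.31e-08), a 3.43-fold difference in signal. The stable transgenic line, made in Bengal, read 11.64 and 11.69, and every array of the other modified lines read between 13.08 and 13.42. The low level therefore lay on all 4 Bengal arrays and on no other. Sequence differences under the probes were not tested, and the second probe set for this gene had a mean of only 4.92.

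IAA18 showed the opposite contrast, low on the Nipponbare control arrays (7.84 and 7.94) and high on those of Bengal (9.52 and 9.55) and Estrela A (9.25 and 9.24). Nipponbare was 3.13-fold lower than Bengal (limma adjusted p = 1.55e-07) and 2.56-fold lower than Estrela A (adjusted p = 7.67e-07). SAUR39, whose product restrains auxin synthesis and transport in rice, read 9.34 and 9.47 in Nipponbare. It stood at 10.95 and 10.62 in Bengal and 10.94 and 10.58 in Estrela A, so the Nipponbare arrays lay below the other 4. The difference was 2.60-fold against Bengal (adjusted p = 0.00243) and 2.56-fold against Estrela A (adjusted p = 0.00266).

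GH3.1, which encodes an auxin-conjugating enzyme, was 2.48-fold lower in Nipponbare than in Bengal (limma adjusted p = 3.18e-05), at 6.71 and 6.91 against 8.18 and 8.06. IAA9 was 2.55-fold lower (adjusted p = 0.00108) and IAA8 2.01-fold lower (adjusted p = 0.000117). IAA14 was 2.29-fold lower in Nipponbare than in Estrela A (adjusted p = 0.000997). Of the 8 called members with the widest range of control means, which are IAA3, IAA8, IAA9, IAA12, IAA14, IAA18, GH3.1 and SAUR39, IAA12 alone was called higher in Nipponbare than in both other cultivars. It read 9.36 and 9.68 in Nipponbare, 8.25 and 8.49 in Bengal and 8.11 and 8.47 in Estrela A, which made Nipponbare 2.22-fold higher than Bengal (adjusted p = 0.000442) and 2.35-fold higher than Estrela A (adjusted p = 0.000263).

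**Figure D2:**
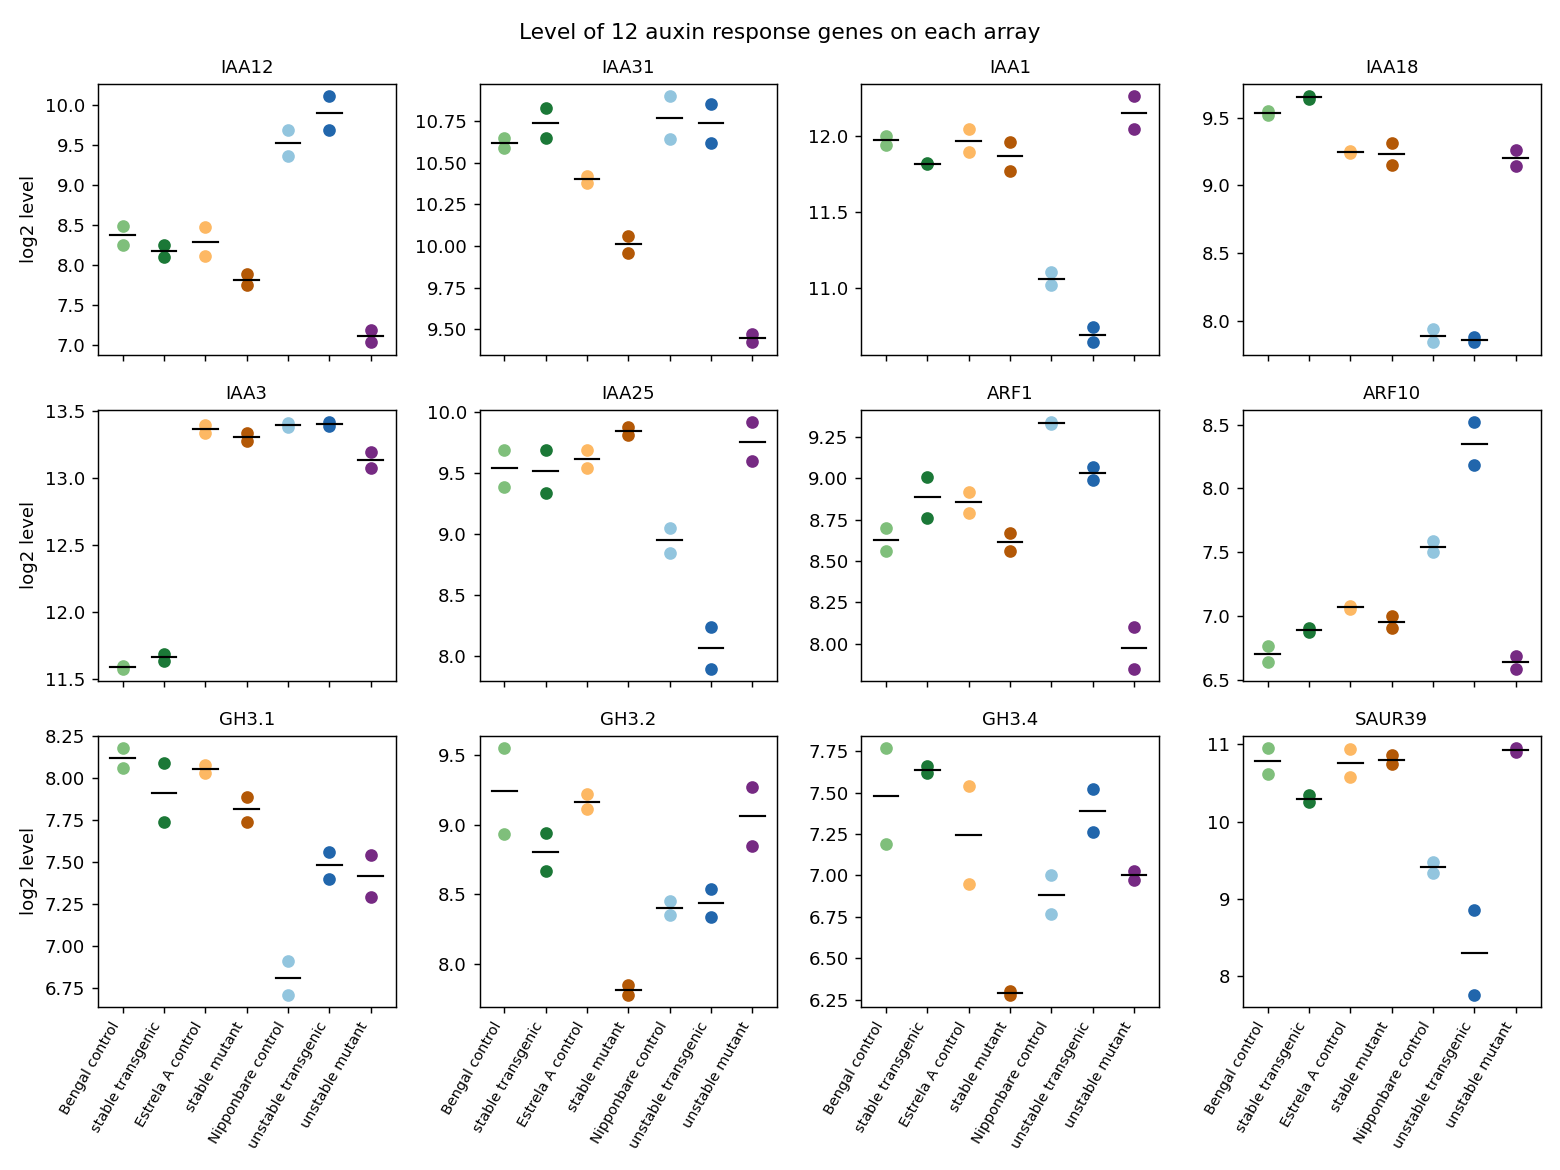
Log2 level (vertical axis, own range in each panel) of 12 members on each array, by group along the horizontal axis; points are single arrays and bars the group means (n = 2). IAA3 is low on all 4 Bengal arrays, IAA12, IAA31 and ARF1 are lowest in the unstable mutant, IAA25 and SAUR39 are lowest and ARF10 highest in the unstable transgenic line, and GH3.2 and GH3.4 are lowest in the stable mutant.

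In the unstable mutant, Aux/IAA genes were called in both directions, and of the 17 ARF genes 5 were called lower, 1 higher and 11 not at all. Against Nipponbare, 26 of 53 members were called, 15 higher and 11 lower. The background was 19.1 percent of all genes higher and 18.9 percent lower. By family, 9 Aux/IAA genes rose and 6 fell of 26, 6 of 17 ARF genes were called (35.3%), 4 GH3 genes rose of 9, and SAUR39 rose. The median difference was 0.23 over the Aux/IAA genes, -0.12 over the ARF genes and 0.17 over the GH3 genes, against 0.0 over all genes. On both arrays of the mutant 21 members lay above and 19 below both control arrays, where 36 percent and 35.5 percent of all genes did so.

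IAA12 had the largest difference of any member in this line. It read 7.03 and 7.19 in the unstable mutant, against 9.36 and 9.68 in the Nipponbare control, and no other group came below 7.75. The fall was 5.31-fold (log2 difference -2.41, SE 0.17, limma adjusted p = 3.17e-06), and in fits that left out 1 array it lay between -2.57 and -2.25. IAA31 read 9.47 and 9.42 against 10.64 and 10.90, below every other array, a 2.51-fold fall (SE 0.12, adjusted p = 1.45e-05). Its second probe set, at a much lower mean of 6.15, differed by 0.14 the other way and was not called. IAA30, the immediate neighbour of IAA31 in the reference annotation, fell by less, from 11.77 and 11.96 to 11.37 and 11.61 (1.3-fold, adjusted p = 0.0479), a call lost in 3 of the 4 fits with an array left out (at most 0.301), with no moderation of the variance and with the compared arrays alone.

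IAA23, IAA7 and IAA13 also fell, by 1.97-fold to 2.24-fold. IAA23, which is needed to keep the root stem cell centre in rice, read 7.33 and 7.52 against 8.47 and 8.71 (2.24-fold, SE 0.11, limma adjusted p = 2.39e-05), and its second probe set fell by 1.18 (adjusted p = 0.000491). IAA13, a repressor of lateral root initiation that the reference also calls IAA1, read 11.94 and 12.11 against 12.99 and 13.02 (1.97-fold, adjusted p = 8.72e-05). IAA7 read 5.55 and 5.60 against 6.67 and 6.63 (2.11-fold, adjusted p = 0.000974). Its mutant values lie below 5.86, the median of all values on the arrays, where the size of a fold is uncertain. For IAA23, IAA13 and IAA7 the mutant and control arrays did not overlap.

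The rising Aux/IAA genes numbered 9. IAA1, an early auxin-induced repressor gene, went from 11.02 and 11.10 to 12.26 and 12.04 (2.13-fold, SE 0.11, limma adjusted p = 3.46e-05), although its dimmer second probe set was not called (adjusted p = 0.126). IAA4, which the reference also calls IAA20, read 7.76 and 7.08 against 6.12 and 6.02 (2.55-fold, adjusted p = 0.000369), and its second probe set also rose, by 0.86. IAA18 read 9.26 and 9.14 against 7.84 and 7.94 (2.48-fold, adjusted p = 3.15e-06). IAA6, which takes part in drought response and tillering in rice, stood at 11.72 and 11.52, above all other arrays, against 10.55 and 10.65 (2.03-fold, adjusted p = 0.000112).

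The rises of IAA8 (1.95-fold), IAA9 (2.05-fold), IAA25 (1.75-fold), IAA2 (1.51-fold) and IAA10 (1.36-fold) were called with limma adjusted p between 0.000217 and 0.0279. The calls of IAA9, IAA25, IAA2 and IAA10 were lost without unstable mutant replicate 1, and those of IAA9, IAA2 and IAA10 also without Nipponbare control replicate 1. IAA8 stayed called in all 4 of these fits, but its second probe set, at a mean of 3.79, was not called (adjusted p = 0.366). The adjusted p without unstable mutant replicate 1 was 0.0756 for IAA9, 0.0515 for IAA25, 0.252 for IAA2 and 0.117 for IAA10.

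Of the transcription factors, ARF1, which the reference also calls ARF16, fell furthest. It read 8.10 and 7.85 in the unstable mutant and 9.33 and 9.34 in the Nipponbare control (2.57-fold, SE 0.12, limma adjusted p = 1.34e-05), and every other array lay at or above 8.56. ARF2 read 8.64 and 8.53 against 9.44 and 9.33 (1.74-fold, adjusted p = 0.000188). ARF10 read 6.69 and 6.59 against 7.50 and 7.59 (1.87-fold, adjusted p = 0.000183). ARF3 fell 1.65-fold (adjusted p = 0.00222) and ARF12, which the reference also calls ARF8, 1.49-fold (adjusted p = 0.00243). These 5 kept their call whichever array was left out. On the probe set that stood for each gene, ARF24 was the single ARF gene that rose, from 9.93 and 9.91 to 10.36 and 10.22 (1.29-fold, adjusted p = 0.0242), and its call was lost in 3 of the 4 fits with an array left out (at most 0.161, without unstable mutant replicate 1). ARF23 differed by 0.13 and was not called (adjusted p = 0.559), but its second probe set, at a mean of 10.57, rose by 0.55 (adjusted p = 0.00845).

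Among the enzymes, GH3.5, known in rice as the jasmonate-conjugating JAR1, had both mutant arrays at 10.23 against 9.49 and 9.65 (1.58-fold, limma adjusted p = 0.00384). GH3.2 read 9.27 and 8.85 against 8.35 and 8.45 (1.58-fold, adjusted p = 0.0271), GH3.1 7.54 and 7.29 against 6.71 and 6.91 (1.52-fold, adjusted p = 0.00737), and GH3.11 rose 1.34-fold (adjusted p = 0.0271) at group means below 5.86, the median of all values on the arrays. GH3.5 kept its call with any array left out, while GH3.1, GH3.2 and GH3.11 did not. Without unstable mutant replicate 1 the adjusted p of GH3.2 was 0.224 and that of GH3.1 0.0786, and without Nipponbare control replicate 1 that of GH3.11 was 0.19. SAUR39 rose 2.87-fold (log2 difference 1.52, SE 0.26, adjusted p = 0.00145), from 9.34 and 9.47 to 10.95 and 10.90.

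The levels of the other cultivars stand beside these differences as follows. Of the 26 called members, 24 had a mutant mean nearer to the mean of the Bengal and Estrela A controls than to the Nipponbare control, and IAA30 and GH3.1 did not. Of the 6798 genes called in this comparison the same held for 89.1 percent, which is the background for that count. Over all 53 members the share was 69.8 percent and over all genes 63 percent. The share for members was thus close to that for all genes. Nearer is not the same as moved towards, since the mutant was closer to the Bengal and Estrela A mean than the Nipponbare control was for 17 of the 26 (65.4 percent, against 67.3 percent of the called genes). For IAA2, IAA12, IAA13, IAA31, ARF1, ARF2, ARF12 and GH3.5 the mutant lay on their side of Nipponbare but overshot their mean by at least as much as Nipponbare lay short of it. SAUR39 was instead among the 17 for which the mutant was closer. Its mutant level of 10.95 and 10.90 was close to Bengal (10.95 and 10.62) and Estrela A (10.94 and 10.58). In the same comparison 9 of 21 root genes were called lower in the mutant and 0 higher. Of 14 grain remnant genes 4 were called higher and 0 lower, and of 10 shoot genes 4 higher and 2 lower. Over all genes 18.9 percent were called lower and 19.1 percent higher. The part of these gene lists in the results was not tested.

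A smaller set differed from all 3 cultivars. Against Bengal 17 members were called in the mutant (background 23.2 percent), and against Estrela A 12 (background 18.8 percent). Called in the same direction against Nipponbare, Bengal and Estrela A were 7 members (13.2 percent), where 5.71 percent of all genes were. IAA6 was higher by 1.02, 0.55 and 0.45 on the log2 scale. IAA12 was lower in each case (-2.41, -1.26 and -1.18), as were IAA31 (-1.32, -1.18 and -0.95), ARF1 (-1.36, -0.65 and -0.88), ARF2 (-0.80, -0.40 and -0.57), IAA13 (-0.98, -0.81 and -0.39) and IAA23 (-1.17, -0.36 and -0.51). These 3 comparisons share the mutant arrays, so their calls are not independent of each other. The mean level of the root genes was 7.51 to 8.11 in the mutant, 7.72 to 7.94 in the Bengal control and 7.43 to 7.45 in the Estrela A control. Their part in these calls was not tested.

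**Figure D3:**
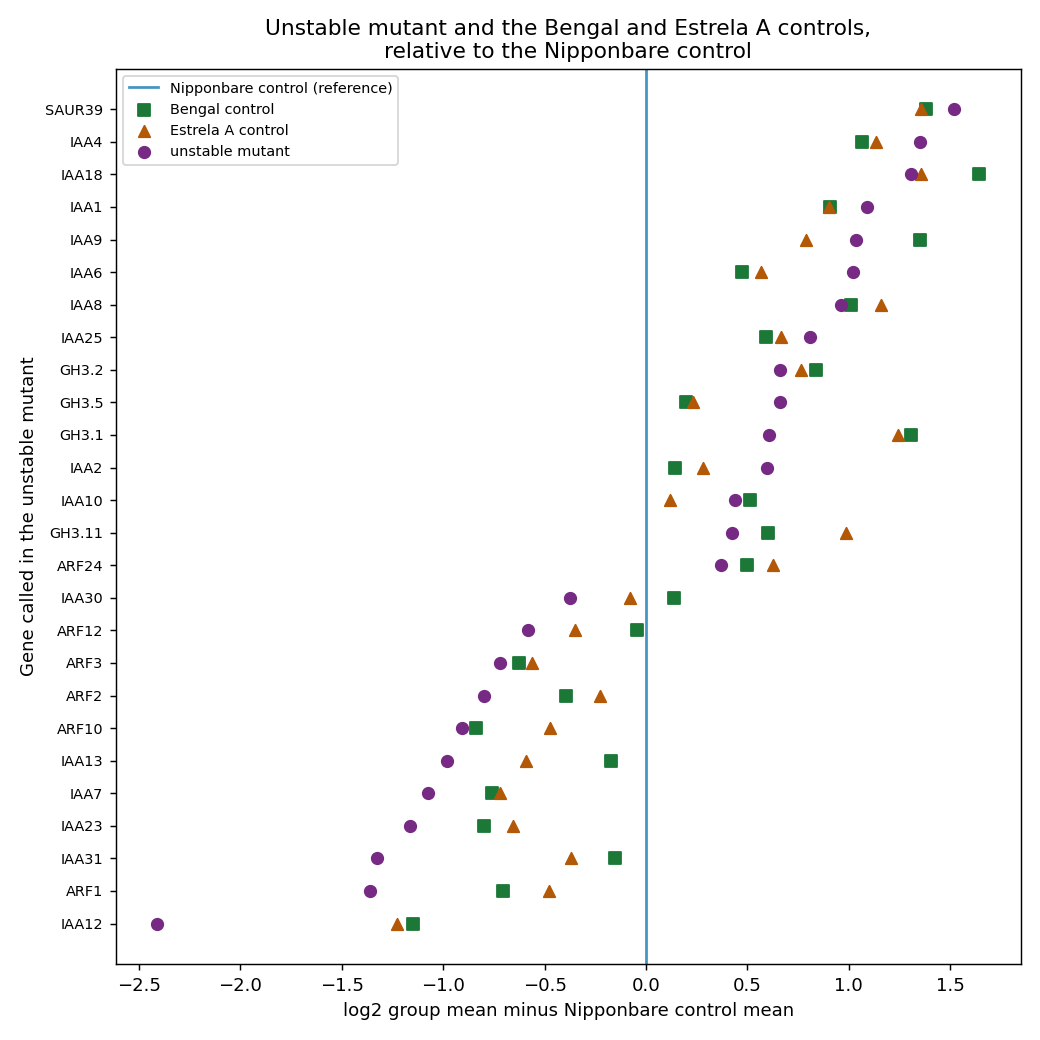
Group mean minus Nipponbare control mean (log2, horizontal axis) for the 26 members called in the unstable mutant, in order of their difference in that line. Circles are the unstable mutant, squares the Bengal control, triangles the Estrela A control and the line at 0 the Nipponbare control; the circles lie on the same side as the other markers for nearly every gene, and circles such as those of IAA12, IAA31 and ARF1 lie beyond them.

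In the unstable transgenic line, the called members were mainly higher. Against Nipponbare 13 of 53 were called, 11 higher (background 9.21 percent) and 2 lower (background 3.92 percent). By family, 5 Aux/IAA genes rose and 1 fell of 26, 3 ARF genes rose of 17, 3 GH3 genes rose of 9, and SAUR39 fell. The median difference was 0.07 for Aux/IAA, 0.14 for ARF and 0.3 for GH3 genes, against 0.03 over all genes. On both arrays 26 members lay above and 9 below both control arrays, where 34 percent and 26.2 percent of all genes did so. These calls depended on single arrays. With either Nipponbare control replicate 1 or unstable transgenic replicate 1 left out, all but IAA8 and ARF10 lost their call. With the Nipponbare and transgenic arrays alone no member was called. The shares of all genes called in these reduced fits are not given here. In the fit of all arrays 21 members had an unadjusted p under 0.05, as did 5616 of 17905 genes.

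ARF10 showed the clearest rise. It read 8.52 and 8.18 in the unstable transgenic line and 7.50 and 7.59 in the Nipponbare control, with no array of the other groups above 7.08 (1.75-fold, log2 difference 0.81, SE 0.11, limma adjusted p = 0.00206). IAA8 read 7.53 and 7.49 against 6.52 and 6.83 (1.78-fold, SE 0.13, adjusted p = 0.0027). Its second probe set, at a mean of 3.79, differed by 0.13 and was not called (limma adjusted p = 0.636). The IAA8 level of the transgenic line lay just below the Bengal (7.71 and 7.66) and Estrela A (7.74 and 7.93) levels, so it differed from Nipponbare in the direction of the other cultivars. ARF10 differed from Nipponbare away from them.

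SAUR39 fell 2.14-fold (log2 difference -1.10, SE 0.26, limma adjusted p = 0.0279), with arrays at 7.76 and 8.85 against 9.34 and 9.47. Both lay below all 12 other arrays, but they differed from each other by 1.09, and the estimate was -1.65 without unstable transgenic replicate 2 and -0.56 without unstable transgenic replicate 1 (adjusted p = 0.134). IAA25 also had its lowest arrays of the series in this line, at 7.90 and 8.24 against 9.05 and 8.85 (1.84-fold lower, adjusted p = 0.00917, and 0.0917 without unstable transgenic replicate 1).

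The other rising repressor genes were IAA14, at 7.58 and 7.51 against 6.30 and 6.82 (1.98-fold, limma adjusted p = 0.0134), IAA9 (1.77-fold, adjusted p = 0.0495), IAA23 at 9.12 and 9.04 against 8.47 and 8.71 (1.4-fold, adjusted p = 0.0208) and IAA19 (1.39-fold, adjusted p = 0.0257). The second probe set of IAA23, at a mean of 7.47, differed by 0.56 and was not called (limma adjusted p = 0.0704). ARF14 rose 1.46-fold (adjusted p = 0.0231) and ARF15 1.39-fold (adjusted p = 0.018). Of the auxin-conjugating enzymes, GH3.8, which also acts in disease resistance in rice, read 8.70 and 8.65 against 7.95 and 8.03 (1.61-fold, adjusted p = 0.026), and GH3.1 read 7.56 and 7.40 against 6.71 and 6.91 (1.59-fold, adjusted p = 0.0136). The jasmonate-conjugating GH3.5 rose 1.41-fold (adjusted p = 0.0455), a call lost with any 1 array left out. GH3.2 read 8.54 and 8.34 against 8.35 and 8.45, and the groups overlapped.

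Against the other cultivars the transgenic line differed in more members, 30 against Bengal (background 47.2 percent) and 32 against Estrela A (background 47.7 percent). The members called the same way against all 3 controls numbered 6 (11.3 percent), where 7.6 percent of all genes were, in comparisons that share the transgenic arrays. ARF10 was higher by 0.81, 1.65 and 1.28 than Nipponbare, Bengal and Estrela A, IAA23 by 0.49, 1.29 and 1.15, ARF14 by 0.55, 0.53 and 0.49 and ARF15 by 0.48, 0.43 and 0.51. IAA25 was lower (-0.88, -1.47 and -1.54), as was SAUR39 (-1.10, -2.48 and -2.46). Of the 21 root genes 2 were called higher and 2 lower than in Nipponbare in this line (background 9.21 percent and 3.92 percent). The median difference was -0.01 over root genes that went both ways. Of the 10 shoot genes 3 were called lower, and the 14 grain remnant genes had a median difference of 0.04. Their part in the results was not tested.

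Both unstable lines were compared with the same 2 Nipponbare arrays. IAA8 read 6.52 and 6.83 there, the lowest of all groups, and rose 1.78-fold and 1.95-fold in the transgenic line and the mutant. GH3.1 was likewise lowest in the Nipponbare control and rose 1.59-fold and 1.52-fold.

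The unstable lines themselves differed in 31 of 53 members, 10 higher in the mutant (background 22.5 percent) and 21 lower (background 27.9 percent). ARF genes accounted for 11 of the 21 lower members, and 1 of the 17 ARF genes, ARF24, was higher. With 1 array left out 6 of these 11 lost their call in at least 1 fit (ARF9, ARF14, ARF15, ARF16, ARF17 and ARF22), ARF14 and ARF17 in all 4. The second probe set of ARF23 was higher in the mutant by 0.72 (limma adjusted p = 0.00106), and its first was not called. Without unstable transgenic replicate 1 fewer members were called, and the share of all genes called in that fit is not given here. IAA12 was 6.92-fold lower in the mutant than in the transgenic line (7.03 and 7.19 against 10.11 and 9.69, SE 0.17, limma adjusted p = 7.71e-07). ARF10 was 3.27-fold lower (adjusted p = 1.45e-06) and IAA23 3.15-fold lower (adjusted p = 1.34e-06), while SAUR39 was 6.15-fold higher (adjusted p = 2.17e-05) and IAA25 3.23-fold higher (adjusted p = 1.88e-05). In these 5 genes the arrays of the lines were furthest apart, with no overlap.

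Further members passed in this contrast. Lower in the mutant by 1.78-fold to 2.52-fold were IAA7, IAA31, ARF1, ARF2, ARF12, IAA13 and ARF3. The mutant values of IAA7 lay below the array median, where the size of a fold is uncertain. Lower by at most 1.46-fold were GH3.7, GH3.8, IAA3, IAA21, IAA30, ARF9, ARF14, ARF15, ARF16, ARF17 and ARF22. Of these 11 calls 10 were lost in at least 1 of the 4 fits with an array left out, and the other, GH3.7, was not called with its second probe set (adjusted p = 0.963). Higher by 1.31-fold to 2.75-fold were IAA1, IAA18, IAA6, IAA4, GH3.2 (1.54-fold, limma adjusted p = 0.0286), IAA10, ARF24 and IAA15, of which GH3.2 and IAA15 lost their call in 3 of those 4 fits. The differences of means in this direct comparison use no control array, but the p-values rest on the spread within groups over all 14 arrays. In it 9 of 21 root genes were called lower in the mutant and 0 higher (background 27.9 percent and 22.5 percent).

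**Figure D4:**
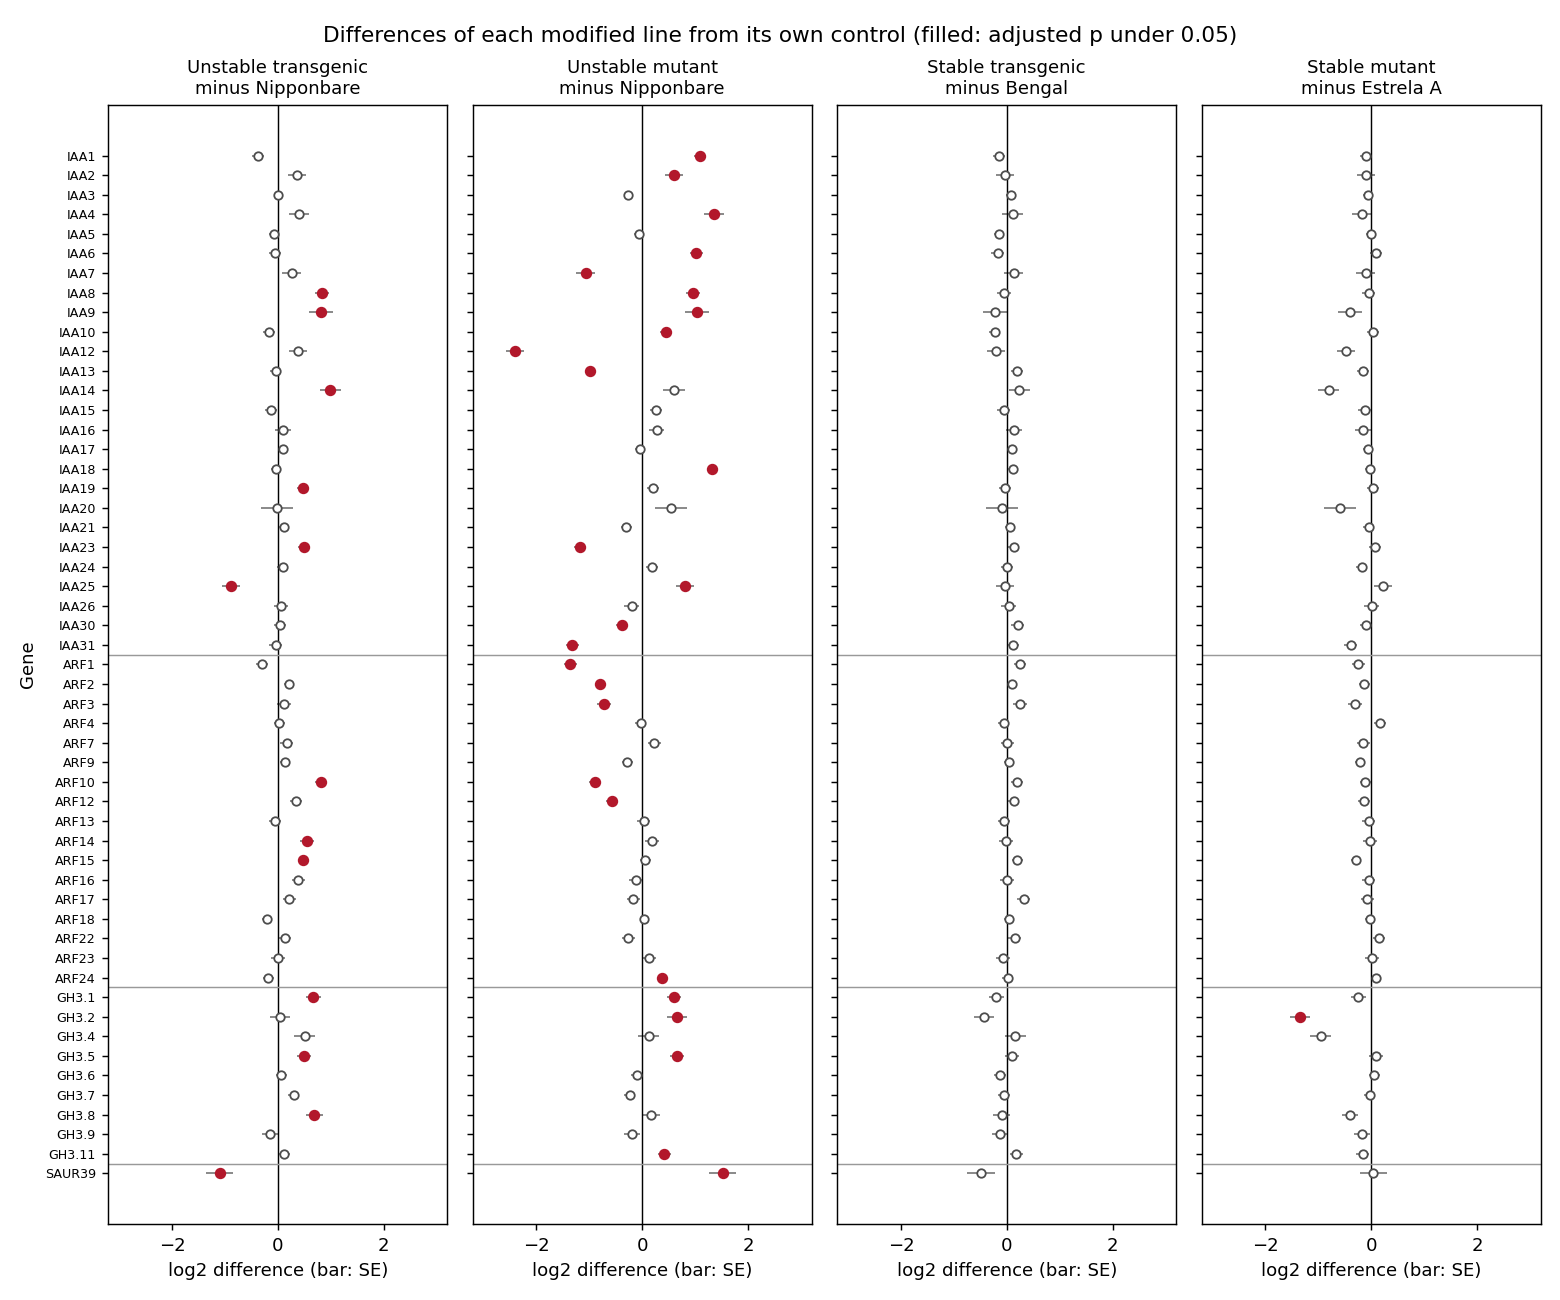
Log2 difference of each measured member (vertical axis, by family) between each modified line and its own control; points are differences of group means (n = 2 each), bars the SE, and filled points those with a limma adjusted p under 0.05. The unstable mutant has 26 filled points, the unstable transgenic line 13, the stable mutant 1 (GH3.2) and the stable transgenic line 0.

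In the stable mutant, the single call was GH3.2, and the members most like it in size were another GH3 gene and a repressor gene. GH3.2 read 7.85 and 7.78 against 9.11 and 9.22 in the Estrela A control (log2 difference -1.35, SE 0.19, limma adjusted p = 0.0167), below the 8.34 that was the lowest array of any other group. The background was 0.106 percent of genes lower and 0.0838 percent higher. With any 1 of the 4 arrays left out the difference was between -1.41 and -1.29, but the adjusted p lay between 0.0943 and 0.188. GH3.4 read 6.28 and 6.30 against 6.95 and 7.54 (difference -0.95, adjusted p = 0.177). Those were the lowest GH3.4 arrays of the series.

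None of the 26 Aux/IAA genes passed in the stable mutant (3 at an unadjusted p under 0.05, limma). IAA14 read 7.08 and 6.83 against 7.70 and 7.81 (difference -0.80, limma adjusted p = 0.326) and IAA20 had a difference of -0.59 (adjusted p = 0.802). ARF3 (-0.31) and ARF15 (-0.29) had the largest differences of the 17 ARF genes, and SAUR39 differed by 0.04 with overlapping arrays. Over the 53 members 25 lay below the control on both arrays and 7 above, where 27.8 percent and 17.1 percent of all genes did so, and the median was -0.1 against -0.03 over all genes. Of the members 8 had an unadjusted p under 0.05, as did 1573 of 17905 genes. The mean log2 level of the 21 root genes was 7.41 to 7.47 in the mutant and 7.43 to 7.45 in its control.

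In the stable transgenic line 0 of 53 members were called with limma, and 2 had an unadjusted p under 0.05, as did 1786 of 17905 genes. The background of called genes was 0.168 percent higher and 0.0447 percent lower. Those 2 were ARF17, at 10.81 and 10.47 against 10.24 and 10.39 (difference 0.32, SE 0.12, adjusted p = 0.574), and GH3.2, at 8.94 and 8.67 against 9.55 and 8.93 (difference -0.43, SE 0.19, adjusted p = 0.671), whose groups overlapped. The widest difference was that of SAUR39, at 10.25 and 10.34 against 10.95 and 10.62 (-0.49, SE 0.26, adjusted p = 0.768). IAA14 (0.24), IAA10 (-0.23), ARF1 (0.25) and GH3.1 (-0.20) were the other members furthest from 0 in their families. The 2 arrays of this line had the widest median gap of all groups, 0.18.

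Whether a line's difference from its control was itself different between stable and unstable lines was tested as a contrast of disjoint arrays. For the transgenic lines 2 of 53 members passed, IAA8 and GH3.1 (background 3.75 percent). For the mutants 19 passed, 12 of them Aux/IAA genes, 3 ARF genes, 3 GH3 genes and SAUR39 (background 16.7 percent). GH3.2 had the largest such difference, since it was 1.58-fold higher than its control in the unstable mutant and 2.55-fold lower in the stable mutant (difference 2.01, SE 0.27, limma adjusted p = 0.00081). The cultivars differ between the lines compared, so line and cultivar cannot be told apart in this contrast.

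Across the 14 arrays some members ran closely together. The level of IAA1 correlated with that of SAUR39 at 0.96, IAA23 with ARF10 at 0.96, IAA25 with SAUR39 at 0.95 and IAA12 with IAA23 at 0.94, while IAA1 and IAA23 ran opposite to each other at -0.97. These are descriptions over arrays that share 7 group means, cultivars and levels of the root genes.

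Outside the families, 22 of 26 other auxin genes were measured, for synthesis, transport, perception and turnover. DAO, which oxidises auxin, read 11.51 and 11.18 in the unstable mutant and 10.36 and 9.74 in the unstable transgenic line, against 9.16 and 9.33 in the Nipponbare control. It rose 4.29-fold in the mutant (SE 0.18, limma adjusted p = 1.32e-05) and 1.75-fold in the transgenic line (adjusted p = 0.0218), where Bengal read 11.15 and 10.94 and Estrela A 11.13 and 10.92. Both mutant arrays lay above those 4, by 0.30 and 0.32 on average, and neither difference was called (adjusted p = 0.368 and 0.375). The efflux carrier gene PIN10A also rose in both, 2.37-fold in the mutant (adjusted p = 0.000362) and 2.03-fold in the transgenic line (adjusted p = 0.00557), from the lowest level of any group (6.73 and 6.88).

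ILL3, one of the genes for hydrolases that free auxin from its conjugates, read 4.93 and 5.39 in the unstable mutant, below all other arrays, against 7.56 and 8.05 in the control (6.25-fold lower, limma adjusted p = 0.000507). The mutant values lie below the array median of 5.86, where the size of a fold is uncertain. ILL6 of the same family read 8.28 and 8.34 in the transgenic line, above all other arrays, against 7.07 and 7.02 (2.4-fold higher, adjusted p = 0.00018), and was 1.36-fold higher in the mutant (adjusted p = 0.0203). In all, 4 of the 22 rose and 3 fell in the mutant (background 19.1 percent and 18.9 percent), the others being PIN4, PIN2 and CRL4. PIN4 read 5.47 and 4.62 against 3.62 and 3.91 (limma adjusted p = 0.00126), and PIN2, an efflux carrier gene of the root, read 4.21 and 4.61 against 5.72 and 5.98 (adjusted p = 0.028). These levels lie mostly below the array median, and no fold is given for them. CRL4, which acts in crown root formation, was 1.34-fold lower (adjusted p = 0.0354). In the transgenic line 3 rose and 0 fell (background 9.21 percent and 3.92 percent). Between the unstable lines DAO, PIN4 and ILL7 were higher in the mutant and MDR17, PID, PIN2, ILL3 and ILL6 lower. Among the 3 controls 5 differed, where 47.5 percent of all genes did, and in both stable lines 0 of 22 were called (ILL8 in the stable mutant alone had an unadjusted p under 0.05, at 0.0144). The largest differences there were those of PIN2 (-0.78) and ILL8 (-0.54) in the stable mutant and of PIN2 (-0.40) and FIB (0.36) in the stable transgenic line.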

How the data were processed

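Expression was measured on 14 Affymetrix rice arrays in 7 groups of 2. The deposited values are log2 levels. Per the labels, the authors used Partek's Robust Multichip Average: background correction, quantile normalization over all arrays, log2 and median polish. The sources used here name no program versions. Array medians lay between 5.83 and 5.89. Of 57381 probe sets, 187 controls were left out. The reference (assembly ASM3414082v1) gave 1 gene for 22436 probe sets, several for 95 and none for 34663. Each gene was represented by its probe set with the highest mean, and 10 members had several. IAA17, IAA23 and GH3.11 rest on probe sets that may match other transcripts. Levels are not compared between genes.

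One mean per group was fitted with limma 3.58.1 in R 4.3.3 (7 residual degrees of freedom, prior 4.57), two-sided, with Benjamini-Hochberg adjustment over 57194 probe sets. The number of arrays limits precision. The step was tested on simulated data. Alternatives changed the moderation, arrays, filters, probe set, normalization, replicate block and control, or left out each array. Members called in a line comparison were named, else the 2 largest differences per family. GH3.2 was always named, and among controls the widest of the called. The members and lists were chosen with earlier results of these data known. The grain list lost symbols of haemoglobins and other genes that its name pattern had caught, after the names were seen.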

Additional observations from a re-analysis of the deposited data

Results flagged for a closer look

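The difference between a line and its control was itself different between an unstable and a stable line for 21 results, by limma contrasts of disjoint arrays with an adjusted p under 0.05. In the transgenic lines, the unstable line's log2 difference exceeded the stable line's by 0.88 for IAA8 and by 0.87 for GH3.1.

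In the mutants, the difference in the unstable line minus that in the stable line was positive for 11 members. It was 2.01 for GH3.2, 1.52 for IAA4, 1.48 for SAUR39, 1.44 for IAA9, 1.40 for IAA14, 1.32 for IAA18, 1.19 for IAA1, 1.07 for GH3.4, 1.00 for IAA8, 0.93 for IAA6 and 0.84 for GH3.1. It was negative for 8 members, at -1.94 for IAA12, -1.24 for IAA23, -1.12 for ARF1, -0.97 for IAA7, -0.94 for IAA31, -0.83 for IAA13, -0.79 for ARF10 and -0.67 for ARF2. GH3.4 and IAA14 were called in neither mutant against its own control, but their differences had opposite signs there. The stable and unstable lines belong to different cultivars.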

How the results depend on the processing

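With 2 arrays per group, the count of called members depended on single arrays. In the unstable transgenic line 13 members were called, 4 with no moderation of the variance, 0 with the compared arrays alone (21 with an unadjusted p under 0.05 in the fit of all arrays) and 2 to 11 with 1 array left out. With the Bengal or Estrela A control in place of Nipponbare, chosen after seeing the data, 30 and 32 were called in that line and 17 and 12 in the unstable mutant, where Nipponbare gave 26 (18 to 26 with 1 array left out). The unstable lines differed in 31 members (20 to 27 with 1 array left out) and the controls in 33 (21 to 29). The stable mutant's 1 call fell to 0 with no moderation and with any of its 4 arrays left out, and the stable transgenic line had 0 in every setting. The contrast of the transgenic lines gave 2 calls, 0 with no moderation or the compared arrays alone, 1 with second probe sets and 0 to 5 with 1 array left out, and that of the mutants 19 (14 to 20). In the fit of all arrays 5616 of 17905 genes had an unadjusted p under 0.05 in the unstable transgenic line. The shares of all genes called in the other fits are not given here. Whether the shifts are particular to the members thus cannot be read from these counts. The cause of these shifts was not tested, though fits with fewer arrays have fewer degrees of freedom.

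Of 946 values of named members under alternatives, 797 kept direction and side of the threshold, 142 were no longer called and 7 changed sign. IAA31 went to 0.14 in the unstable mutant and 0.26 against the transgenic line with its second probe set. The others were never called. GH3.2 in the unstable transgenic line went to -0.01 without Nipponbare control replicate 1 and -0.06 without unstable transgenic replicate 1 (range to 0.14), SAUR39 in the stable mutant to -0.02 without stable mutant replicate 2 and -0.14 without Estrela A control replicate 2 (range to 0.22), and IAA14 in the stable transgenic line to -0.08 without stable transgenic replicate 2 (range to 0.56). Replicate numbers were not treated as pairs in the main fit. Deviations of same-numbered arrays correlated at -0.208 to 0.1151 between groups, which cannot show whether same-numbered pools were handled together. With the replicate number as a block, 12 members were called in the unstable transgenic line, 26 in the unstable mutant, 30 between the unstable lines, 1 in the stable mutant, 0 in the stable transgenic line, 30 among controls, and 1 and 19 in the contrasts of transgenic lines and mutants.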
